A study of Mus musculus with 12 samples.

Results

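The 10 genes described here are mouse genes at loci tied to the risk of Alzheimer disease in people and known to be active in myeloid cells: Picalm, Bin1, Sorl1, Cd33, Inpp5d, Plcg2, Abi3, App, Clu and Abca7. They were chosen by name, and all 10 were found as rows of the deposited table of 17358 genes. RNA sequencing libraries had been made from brain perivascular macrophages, which sit in the space around small vessels, of C57BL/mice (spelled so in the series text). There were 5 libraries from aged mice of 18 months and 7 from young adult mice of 3 months, called biological replicates in the series text. No genotype change or treatment is named for either group, and neither the sort markers, the sex nor the number of animals or cells behind a library is given, so the p-values measure only the spread between these libraries. In bulk libraries of this kind, a lower share of cells that use a gene and less RNA per cell cannot be told apart.

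Many of the loci for late-onset Alzheimer disease hold genes used by microglia and macrophages. Several of the products act in 1 chain at the cell surface. Receptors coupled to an activating adaptor switch on the kinase Syk, and phospholipase C gamma turns over membrane phosphoinositides. The phosphatase SHIP1 and, in people, some sialic acid-binding receptors damp the signal. Other products take cargo into clathrin-coated pits and sort it in endosomes, or move lipids across membranes. Endosomes are compartments in which the amyloid precursor protein is also cut. Perivascular macrophages are known for taking up material that drains along the vessel wall, including amyloid peptides.

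The promoters of 7 of the 10 genes were in the RefSeq table of GRCm38.p6. The 250 bases before a RefSeq start are shown for 3 of them. Picalm and Cd33 are shown since their levels were inversely related between libraries by Pearson r on the normalised scale used below. Inpp5d is shown as a gene of blood cells. Capitals mark GAGGAA, the core of the motif of the myeloid factor PU.1, and CACGTG, the E-box bound by many helix-loop-helix factors; both were searched on both strands, and neither contains the other.
Picalm (chr7:90129963-90130212, plus strand): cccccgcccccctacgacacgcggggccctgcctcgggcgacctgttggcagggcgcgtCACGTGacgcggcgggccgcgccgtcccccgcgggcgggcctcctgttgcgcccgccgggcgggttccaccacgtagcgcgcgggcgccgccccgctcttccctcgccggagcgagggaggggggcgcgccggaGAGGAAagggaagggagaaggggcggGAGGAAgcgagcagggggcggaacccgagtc
Cd33 (chr7:43533172-43533421, minus strand): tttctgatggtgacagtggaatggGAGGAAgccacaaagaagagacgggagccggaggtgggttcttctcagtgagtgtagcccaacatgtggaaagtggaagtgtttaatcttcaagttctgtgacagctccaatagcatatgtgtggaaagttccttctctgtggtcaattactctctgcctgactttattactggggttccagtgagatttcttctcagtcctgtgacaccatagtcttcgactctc
Inpp5d (chr1:87620062-87620311, plus strand): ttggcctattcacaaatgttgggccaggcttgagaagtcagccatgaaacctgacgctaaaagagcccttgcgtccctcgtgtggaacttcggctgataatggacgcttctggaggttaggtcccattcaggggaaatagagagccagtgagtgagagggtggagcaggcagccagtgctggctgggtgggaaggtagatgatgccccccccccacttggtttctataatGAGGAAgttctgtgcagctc
The Picalm stretch ends inside the gene range given below, and the Cd33 stretch lies inside its gene, since the RefSeq range of each gene begins farther upstream than the start used. The upstream sequence of Picalm held 39 CpG and 79.2% GC, that of Cd33 3 CpG and 46.8% GC, and that of Inpp5d 5 CpG and 54.4% GC. Over the 9981 promoters of tested genes the medians were 16 CpG and 59.6% GC. GAGGAA was found in these 3 promoters and not in those of Plcg2, App, Abca7 and Sorl1, and 23% of the promoters of tested genes held it. CACGTG was found in Picalm, in Plcg2 and in the outer of the pair of Sorl1 starts, against 8.52% of the promoters of tested genes, and TATAAA in none of the 7 genes, against 6.57%. Over all 32851 promoters of the same length the shares were 23.3% for GAGGAA, 6.02% for CACGTG and 12.4% for TATAAA.

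Per unit of transcript length the 10 genes spanned from among the better expressed genes of these macrophages to barely detected ones. FPKM, which scales reads by transcript length and library size, had its median over the 12 libraries at 95.4 for Picalm, 64.9 for Cd33, 46.6 for App, 34.2 for Bin1 and 14.98 for Inpp5d. These 5 genes had at least 612 counts in every library. Plcg2 followed with a median of 5.55 FPKM and Abi3 with 3.99 FPKM, whereas Sorl1 (0.12), Clu (0.115) and Abca7 (0.095) lay below most tested genes. The median level of Picalm was above that of 89.8% of the 9550 tested genes, and that of Abca7 above 6.59%. The order of neighbours held in 9 of 12 libraries for Picalm over Cd33, in 10 for Cd33 over App and in 11 each for App over Bin1, Bin1 over Inpp5d and Inpp5d over Plcg2. Plcg2 and Abi3 were in that order in 6 of 12 libraries, as were Sorl1 and Clu, and Clu and Abca7, so these neighbours did not differ beyond their spread. More than 3 counts in all 12 libraries were found for 5 of the 10 genes, against 48.2% of tested genes.

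**Figure D1:**
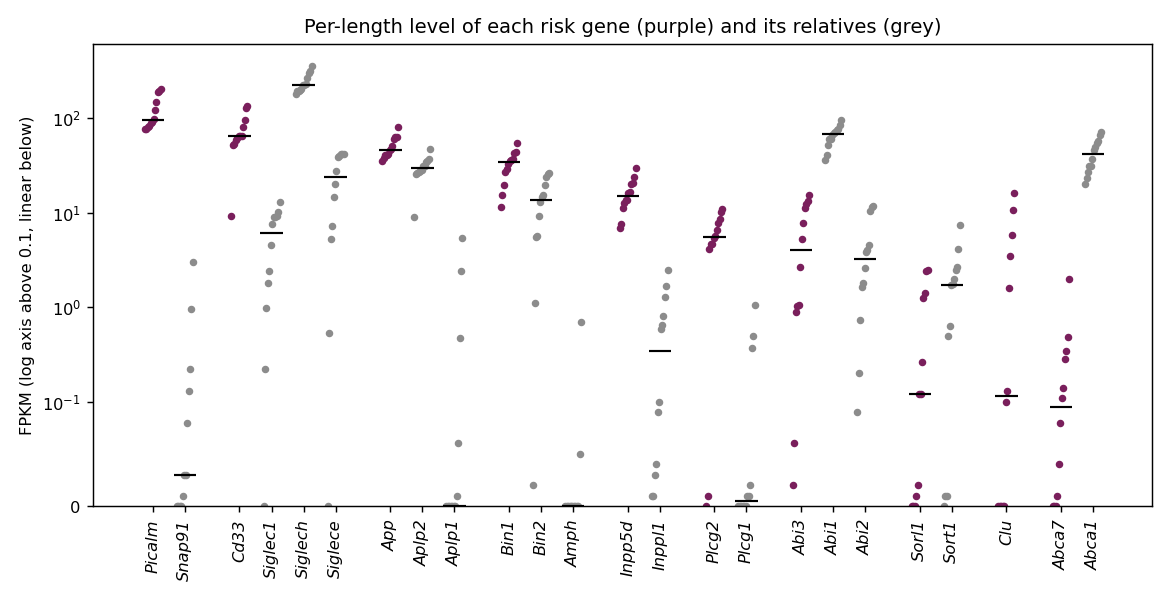
Deposited FPKM of each risk gene (purple) and of related genes (grey), with 1 point per library and a black line at the median of the 12 libraries; the vertical axis is logarithmic above 0.1 and linear below. Picalm, Cd33, App, Bin1 and Inpp5d were present in every library, whereas Sorl1, Clu and Abca7 were at or near 0 in most.

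Related genes of the same family were often at another level in the same libraries. Abi1, which like Abi3 is a subunit of the actin-regulating WAVE complex, was at 66.1 ± 17.1 FPKM (SD, n = 12) and exceeded Abi3 in all 12 libraries. Abca1, the cholesterol exporter closest in kind to Abca7, was at 43.1 ± 16.9 FPKM and exceeded Abca7 in all 12. In contrast, Picalm exceeded its neuronal relative Snap91 (0.369 ± 0.865 FPKM), Inpp5d exceeded the related phosphatase gene Inppl1 (0.647 ± 0.802 FPKM) and Bin1 exceeded the neuronal Amph (0.0617 ± 0.198 FPKM) in all 12 libraries. Plcg2 exceeded Plcg1 (0.164 ± 0.329 FPKM) in 11 of 12. App exceeded Aplp2 (30.1 ± 8.99 FPKM) in 11 of 12 libraries, and Aplp1 (0.693 ± 1.62 FPKM) in all of them. Among sialic acid-binding receptors Cd33 lay below Siglech (243 ± 57.0 FPKM) in all 12 libraries and above Siglec1 (5.71 ± 4.56 FPKM) in all 12. It lay above Siglece (23.5 ± 17.5 FPKM) in 11 of 12. Other relatives were less clearly apart. Bin1 exceeded Bin2 (13.4 ± 9.27 FPKM) in 10 of 12 libraries and Abi3 exceeded Abi2 (4.43 ± 4.36 FPKM) in 8 of 12. Sorl1 exceeded Sort1 (1.95 ± 2.16 FPKM) in 3 of 12.

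Whether these genes differ between aged and young macrophages was read from 1 edgeR quasi-likelihood fit over all 9550 tested genes. All 10 passed its filter on low counts, and none passed the threshold of an adjusted p under 0.05 (Benjamini-Hochberg), where 0.0105% of tested genes did. At an unadjusted p under 0.05 there was 1 of the 10, Picalm, against 5.97% of tested genes (3.85% higher and 2.12% lower in aged libraries). For 6 genes the log2 fold change of aged over young was positive and for 4 negative, with a median of 0.18, beside 49.5% positive and a median of −0.01 over all tested genes. Aged and young libraries overlapped for every one of the 10 genes, while they did not overlap for 0.597% of tested genes. The levels below are normalised CPM, counts scaled to the library total with TMM factors.

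**Figure D2:**
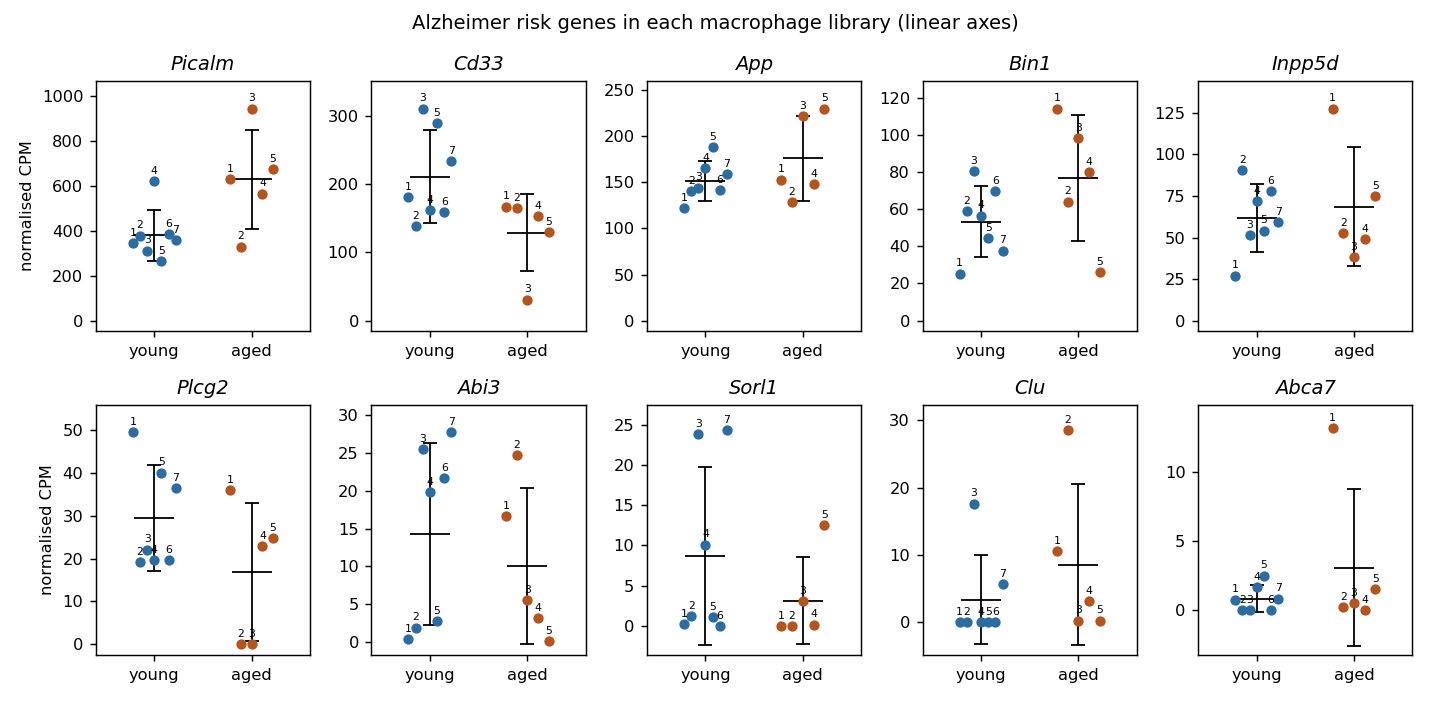
Normalised CPM of each of the 10 genes in every library, with young libraries in blue (n = 7) and aged ones in brown (n = 5); numbers name the library, and black bars give mean ± SD. Picalm was highest in aged library 3 (943) and Cd33 lowest in the same library (30.6), and Plcg2 was at or near 0 in aged libraries 2 and 3.

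Picalm (Entrez 233489, chromosome 7 from 90130192 to 90209447), which helps assemble the clathrin coat on membranes, was the most abundant of the group. It was at 629.8, 329, 943, 564.5 and 674 normalised CPM in aged libraries 1 to 5, and between 264 and 619 with a median of 358 in young ones. Aged libraries 1, 3 and 5 lay above all young libraries, and aged library 2 lay within their range. The means were 628 ± 221 (SD, n = 5) and 380.4 ± 113 (SD, n = 7), a log2 fold change of 0.72 ± 0.26 (SE) with an unadjusted p of 0.0118 and an adjusted p of 0.50 by edgeR. The gene ranked 226th by p among the 9550 tested genes. Without aged library 2 the adjusted p was 0.11. Without aged library 3, the highest, the log2 fold change was 0.50 (unadjusted p = 0.0664, edgeR adjusted p = 0.99984). On log2(FPKM + 1) with limma it was 0.55 (unadjusted p = 0.0856). Without aged libraries 1, 3 and 4 together, the 3 at one end of the leading principal component of all genes, the log2 fold change was 0.38 (unadjusted p = 0.273, edgeR adjusted p = 0.99967).

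Bin1 (Entrez 30948, chromosome 18 from 32376618 to 32435740), a membrane-bending adaptor of the amphiphysin family, was at 114, 64.1, 98.3, 80.1 and 26.1 normalised CPM in aged libraries 1 to 5. Young libraries ran from 25.3 to 80.5 with a median of 56.5. Aged libraries 1 and 3 were the highest of all 12, and aged library 5 was close to the lowest young one. The log2 fold change was 0.52 ± 0.44 (SE, edgeR adjusted p = 0.999), and it turned to −0.24 without aged libraries 1, 3 and 4. Bin1 is also known to be abundant in oligodendrocytes and neurons. Summed oligodendrocyte markers were between 30.1 and 73.5 CPM of the library total in aged and between 27.2 and 94.2 in young libraries. Of these 12 markers 2 exceeded 3 counts in every library, Mog and Opalin were at 0 in 11 of 12 libraries, and the part of such RNA in the level of Bin1 was not tested.

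Sorl1 (Entrez 20660, chromosome 9 from 41964709 to 42124297), a receptor that returns cargo such as the amyloid precursor from endosomes, was detected unevenly. Aged libraries 1 to 5 were at 0, 0, 3.05, 0.144 and 12.6 normalised CPM. Young libraries ran from 0 to 24.3 with a median of 1.25, and young libraries 3, 4 and 7 held 709, 324 and 740 counts while the other 4 held at most 35. More than 3 counts were found in 2 of 5 aged and 6 of 7 young libraries. The log2 fold change was −1.46 ± 1.98 (SE, edgeR adjusted p = 0.999), and it ran from −3.49 without aged library 5 to −0.95 without young library 7 over the single libraries left out. Aged library 5 held 375 counts and the other aged libraries at most 61.

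Cd33 (Entrez 12489, chromosome 7 from 43527399 to 43537424), a sialic acid-binding receptor of myeloid cells, had the second smallest p of the 10 genes. It was at 167, 165, 30.6, 153 and 129 normalised CPM in aged libraries 1 to 5, and between 139 and 310.4 with a median of 180.4 in young ones. Aged libraries 3 and 5 lay below all young libraries, and 4 young libraries lay above all aged ones. The aged mean was 129 ± 56.9 (SD, n = 5) and the young mean 210.5 ± 68.1 (SD, n = 7), a log2 fold change of −0.71 ± 0.37 (SE) with an unadjusted p of 0.0707 and an adjusted p of 0.931 by edgeR. Without aged library 3 the log2 fold change was −0.48, and on log2(FPKM + 1) with limma it was −1.004 (unadjusted p = 0.0372). The aged libraries other than library 3 spanned only 129 to 167.

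Inpp5d (Entrez 16331, chromosome 1 from 87620312 to 87720510) encodes SHIP1, the phosphatase that removes a phosphate from the lipid products of phosphoinositide 3-kinase. It was at 128, 52.8, 38.1, 49.2 and 75.1 normalised CPM in aged libraries 1 to 5 and between 27.1 and 90.5 with a median of 59.5 in young ones. Only aged library 1 lay above the young range. Aged over young gave a log2 fold change of 0.15 ± 0.42 (SE, edgeR adjusted p = 0.999), an interval of 2 SE on either side from −0.70 to 0.99. It was −0.23 without aged library 1 and −0.01 without young library 1. The transcript length implied by counts and FPKM ran from 3138 to 4699 bases between libraries, a ratio of 1.5, while the median ratio over 5290 genes was 1.04 and 93.2% of them had a smaller one. With an offset for this length the log2 fold change was 0.27.

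Plcg2 (Entrez 234779, chromosome 8 from 117498275 to 117635142), the phospholipase C gamma of blood cells, was nearly missing from a pair of aged libraries. Aged libraries 1 to 5 were at 36.0, 0, 0.05, 22.98 and 24.8 normalised CPM, with 896, 0, 1, 480 and 740 counts. Young libraries ran from 19.1 to 49.5 with a median of 22.1 and held between 535 and 1337 counts each. Aged libraries 2 and 3 thus lay below all young libraries, the count of 0 in aged library 2 allowing up to 3 counts or 0.0983 CPM of its total, and the other 3 aged libraries lay within the young range. Its log2 fold change was −0.81 ± 1.22 (SE, edgeR adjusted p = 0.999), and ran from −1.34 without aged library 1 to −0.49 without aged library 2 over the single libraries left out (−0.52 without aged library 3). It was −3.85 with limma voom (unadjusted p = 0.02996, adjusted p = 0.493) and −2.47 on log2(FPKM + 0.1). The pattern was not rare in a set of genes with a looser floor than the young counts of Plcg2. The set was 1824 tested genes with a young mean of 15 to 60 normalised CPM and at least 100 counts in every young library. Of these, 116 (6.36%) had 3 counts or fewer in 2 or more aged libraries. Plcg2 itself held at least 535 counts in every young library, and a share at that floor was not computed.

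Abi3 (Entrez 66610, chromosome 11 from 95830072 to 95842476), a blood-cell member of the Abi family, was high in some and low in other libraries of both age groups. Aged libraries 1 to 5 were at 16.6, 24.8, 5.50, 3.16 and 0.10 normalised CPM. Young libraries ran from 0.407 to 27.8 with a median of 19.8, and young libraries 3, 4, 6 and 7 were at 19.8 or above while young libraries 1, 2 and 5 were at 2.83 or below. Its log2 fold change was −0.51 ± 1.29 (SE, edgeR adjusted p = 0.999), and −0.98 with a transcript length offset. It ran from −1.16 without aged library 2 to −0.20 without aged library 5 over the single libraries left out, and was −0.27 without young library 7 and −0.18 without aged libraries 1, 3 and 4. The implied length was 2888 and 3081 bases in aged libraries 1 and 2 and between 1821 and 2130 bases in young libraries 3, 4, 6 and 7, over the 6 libraries with at least 5 FPKM. Exons of Abi3 overlap those of Gngt2, Phospho1 and Zfp652 on the opposite strand by 234, 1708 and 2913 bases in GENCODE M21, and the library chemistry does not mark the strand. Reads of these genes therefore cannot be told apart there, and the level of Abi3 is uncertain. Gngt2 held between 993 and 3804 counts in every library, Phospho1 at most 1 and Zfp652 at most 209.

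App (Entrez 11820, chromosome 16 from 84952666 to 85175255), the amyloid precursor itself, was the steadiest of the group. It was at 153, 128, 221, 148 and 230.0 normalised CPM in aged libraries 1 to 5 and between 122 and 188 with a median of 144 in young ones. Aged libraries 3 and 5 lay above all young libraries. The coefficient of variation over 12 libraries was 21.3%, against 41.1% to 206% for the other 9 genes. Its log2 fold change was 0.22 ± 0.24 (SE, edgeR adjusted p = 0.999), with an interval of 2 SE on either side from −0.27 to 0.70. It was 0.08 without aged library 5 and 0.10 without aged library 3, the 2 highest, and 0.13 without young library 1, the lowest. App is also abundant in neurons, whose 11 markers summed to between 20.04 and 87.5 CPM of the library total in aged and between 4.01 and 65.8 in young libraries. Of these 1 exceeded 3 counts in every library, Tubb3 was at 0 in 10 of 12, and their part in the level of App was not tested.

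Clu (Entrez 12759, chromosome 14 from 65968483 to 65981548), the secreted chaperone clusterin, was listed at 0 in most young libraries. Aged libraries 1 to 5 were at 10.5, 28.6, 0.20, 3.11 and 0.20 normalised CPM with 262, 848, 4, 65 and 6 counts. Young libraries 3 and 7 were at 17.6 and 5.69 with 524 and 173 counts, and the other 5 young libraries held none. More than 3 counts were thus found in 5 of 5 aged and 2 of 7 young libraries. The fitted log2 fold change was 1.36 ± 2.12 (SE, edgeR adjusted p = 0.999) and 0.08 without aged library 2. Clu is known to be abundant in astrocytes, choroid plexus and ependyma. Summed choroid plexus and ependyma markers were between 226 and 985 CPM of the library total in aged and between 62.9 and 153 in young libraries, led by Ttr and Kcnj13. Of the 8 choroid and ependyma markers in the table all 8 exceeded 3 counts in some library and 1 did in every library; Folr1 and Foxj1 were at 0 in 11 of 12 libraries. Aged libraries 1 to 5 had choroid sums of 531, 985, 309, 968 and 226 CPM. Aged library 2 was the highest of the 12 in both Clu and the choroid sum, while aged library 4, at a sum of 968, held 3.11 normalised CPM of Clu. Young libraries 3 and 7, the only young ones with Clu, had sums of 127 and 117. Young library 6 had the highest young sum, 153, and 0 counts of Clu. Astrocyte markers summed to between 33.8 and 128 CPM in aged and between 19.9 and 76.3 in young libraries. All 13 astrocyte markers exceeded 3 counts in some library and none in every one, and Aldh1l1 and Gjb6 were at 0 in 10 of 12. The part of other cells in the level of Clu was not tested.

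Abca7 (Entrez 27403, chromosome 10 from 79996453 to 80015572), a lipid transporter, was close to the limit of detection. Aged libraries 1 to 5 were at 13.1, 0.236, 0.55, 0 and 1.54 normalised CPM, with 326, 7, 11, 0 and 46 counts. Young libraries ran from 0 to 2.51 with a median of 0.777 and held at most 79 counts. The log2 fold change of 1.88 ± 1.74 (SE, edgeR adjusted p = 0.999) rested on aged library 1, and without it the value was −0.54.

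**Figure D3:**
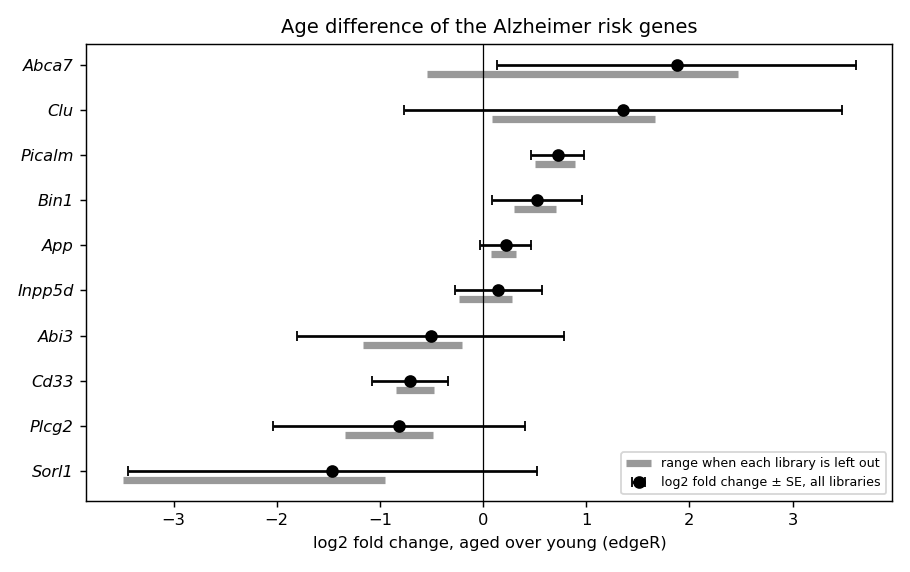
Log2 fold change of aged over young libraries for each of the 10 genes (points) with its standard error (bars), and the range of the value when each library was left out in turn (grey). Picalm (0.72), Bin1 (0.52), App (0.22), Cd33 (−0.71), Plcg2 (−0.81), Abi3 (−0.51) and Sorl1 (−1.46) kept their sign with any 1 library left out. Clu (1.36) did so in the 10 such fits that held it, whereas Abca7 (1.88) and Inpp5d (0.15) did not keep theirs.

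How the genes varied together was examined over the 45 pairs in the 12 libraries, on log2(normalised CPM + 1). Libraries with more Picalm had less Cd33, the only pair that passed by Pearson r (r = −0.79, permutation p = 4.8e-04, adjusted p = 0.0216). By Spearman rho 0 of the 45 pairs passed, and rho was −0.78 for this pair (permutation p = 0.00396, adjusted p = 0.178). Young libraries 3 and 5 were highest in Cd33 and lowest in Picalm, and aged library 3 was the reverse. The p-values below for smaller sets of libraries are unadjusted. They belong to a pair picked from the 45 in the same libraries, and are given as a description only. Without the 2 libraries farthest in Picalm, aged 3 and aged 5, r was −0.61 (permutation p = 0.0568, above 0.05 even unadjusted). Without the 2 farthest in Cd33, aged 3 and young 3, it was −0.66 (permutation p = 0.0343). It was −0.68 without aged library 3 (permutation p = 0.0217) and −0.69 without aged libraries 1, 3 and 4 (permutation p = 0.0402). Within the 7 young libraries r was −0.65 (exact permutation p = 0.094) and rho was −0.79 (exact permutation p = 0.048), and no value was computed within the 5 aged libraries. On the log2(FPKM + 1) scale, which has no TMM factors and uses a length per library, r was −0.57 (permutation p = 0.0323, adjusted p = 0.438) and −0.17 within the young libraries. By adjusted p the relation thus passed by Pearson r on the former scale and not on the latter, and by Spearman rho on neither. Which of the differences between the scales accounts for this was not tested. Of the 45 pairs 29 had a positive r, and the median r was 0.09.

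**Figure D4:**
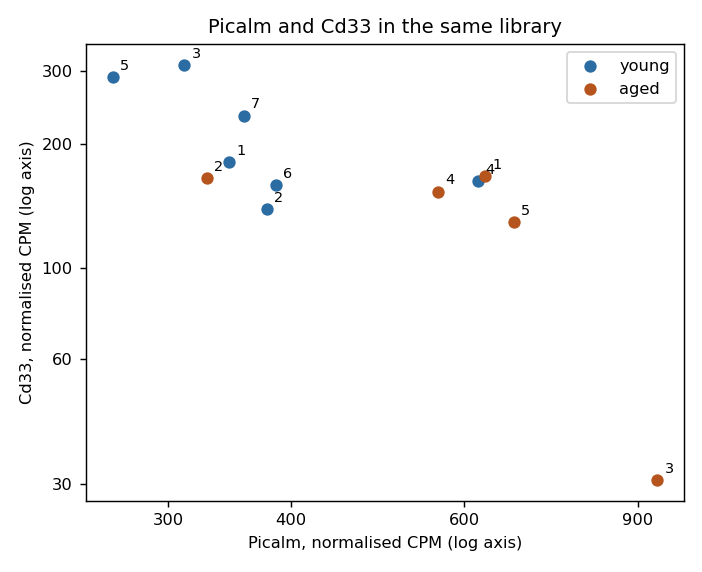
Normalised CPM of Picalm against Cd33 in each library on logarithmic axes, with young libraries in blue and aged in brown and numbers naming the library. Aged library 3 (943 and 30.6) lies at the lower right and young libraries 3 and 5 at the upper left.

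The tested gene with the pattern most like each of the 10, among genes with a mean of at least 50 normalised CPM, was found by Pearson r over the 12 libraries. It was Aup1 for Cd33 (r = 0.98), Atp8a1 for Picalm (0.94), Rdx for Plcg2 (0.87), D1Ertd622e for App (0.85), Chd9 for Sorl1 (0.85) and Psmc6 for Bin1 (0.84). For Abca7 it was Rpl17 (0.81), for Abi3 Ap2m1 (0.80), for Inpp5d Msn (0.78) and for Clu Atp5g3 (0.77). Each is the best of at least 2659 genes, so high values are given as a description only. The rank correlation of Plcg2 with Rdx was only 0.37.

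The partners of these genes were taken from 8 lists, and no gene of any list passed the threshold in either direction. In the clathrin list 12 of 22 tested genes had positive log2 fold changes (median 0.07). The heavy chain Cltc was at 171 ± 47.2 FPKM (SD, n = 12) and more than 3 counts were found for 17 of the 22 genes in every library. The 2 smallest p-values were those of the kinase gene Aak1 and the adaptor subunit gene Ap2a2 (edgeR adjusted p = 0.911 and 0.99). Aak1 was at 1.14 ± 1.37 normalised CPM in the aged group and 0.15 ± 0.171 in the young group. It exceeded 3 counts in only 7 of 12 libraries, with a median of 0.015 FPKM, and so lay near the limit of detection. Ap2a2 was at 189 ± 84.3 against 266 ± 46.5. In the retromer and sorting list 4 of 16 were positive and 12 negative (median −0.17). Gga3, a Golgi sorting adaptor, had an aged mean of 0.949 ± 1.28 and a young mean of 21.1 ± 18.4 normalised CPM (edgeR adjusted p = 0.633). It exceeded 3 counts in 9 of 12 libraries. The retromer subunit gene Vps26a was at 52.8 ± 45.0 against 107 ± 42.9 (edgeR adjusted p = 0.999).

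In the receptor and phosphoinositide signalling list 11 of 27 tested genes were positive (median −0.07). The activating receptor Trem2, an Alzheimer risk gene of its own, had an aged mean of 233 ± 120.3 and a young mean of 321 ± 90.6 normalised CPM, and its adaptor Tyrobp at 3806 ± 1257 against 4753 ± 1164. Per length Tyrobp stood at 8623 ± 2385 FPKM and the kinase gene Syk at 3.36 ± 2.33 FPKM, on either side of Plcg2 (5.73 ± 3.46 FPKM) and Inpp5d (16.2 ± 6.71 FPKM). The phosphatase gene Ptpn6 was at 95.4 ± 27.6 against 145 ± 46.5 normalised CPM and the kinase subunit Pik3cg at 72.6 ± 32.8 against 119 ± 60.8 (edgeR adjusted p = 0.939 and 0.99). In the WAVE list 5 of 9 were positive (median 0.23). Its GTPase Rac2 had an aged mean of 38.6 ± 29.0 and a young mean of 106 ± 25.8 normalised CPM (unadjusted p = 0.0062, edgeR adjusted p = 0.399), and Abi1 at 242 ± 65.8 against 175 ± 32.6 (adjusted p = 0.934).

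In the list of App family, binding and processing genes 16 of 22 were tested, 4 with positive and 12 with negative log2 fold changes (median −0.29). The alpha-secretase Adam10 had an aged mean of 641 ± 285 and a young mean of 363.5 ± 130.2 normalised CPM (unadjusted p = 0.0198, edgeR adjusted p = 0.593), and Adam9 at 111 ± 45.7 against 64.1 ± 14.6 (adjusted p = 0.756). The gamma-secretase genes Ncstn and Psenen were at 24.9 ± 19.0 and 675 ± 237 FPKM. The beta-secretase Bace1 exceeded 3 counts in 1 of 12 libraries and was not tested.

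Of the lipid transport genes 13 of 20 in the table were tested, 5 of them positive (median −0.33). Abca1 was at 551 ± 212 against 361 ± 105 normalised CPM and Apoe at 16758 ± 9142 against 25703 ± 5229 (edgeR adjusted p = 0.785 and 0.763). Among Siglecs 3 of 4 tested were positive (median 0.63), with Siglech at 570.4 ± 94.2 against 403 ± 82.1 and Siglec1 at 61.3 ± 16.2 against 17.5 ± 18.9 normalised CPM (edgeR adjusted p = 0.602 and 0.989). Of 37 tested genes at other Alzheimer loci 19 were positive (median 0.01). The smallest p-values among them were those of Cox7c, a respiratory chain subunit, at 505 ± 223 against 290.3 ± 76.1, and of the tetraspanin Tspan14, at 20.3 ± 20.1 against 80.4 ± 46.9 normalised CPM (edgeR adjusted p = 0.512 and 0.592).

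**Figure D5:**
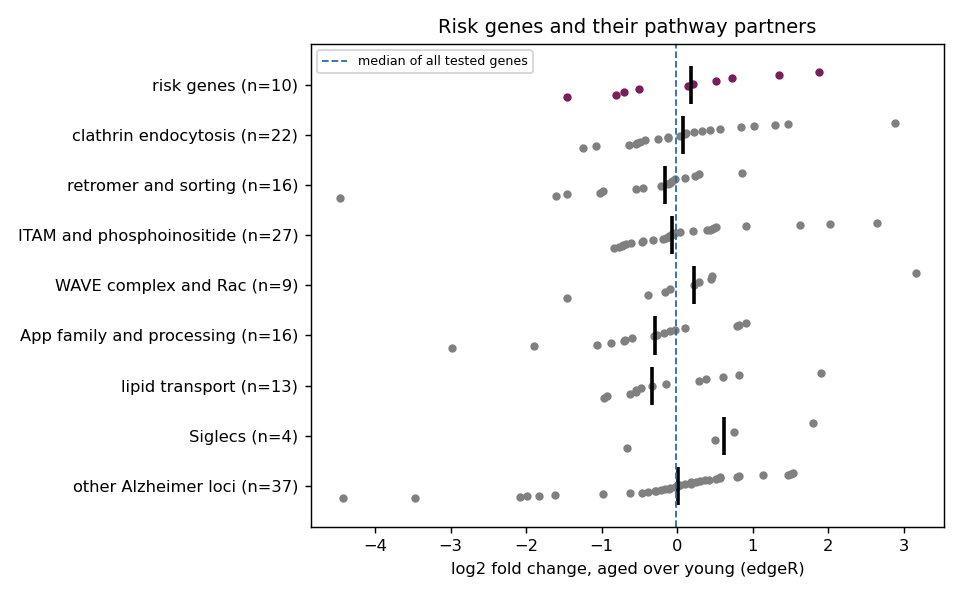
Log2 fold changes of aged over young libraries for the 10 risk genes (purple) and the tested genes of 8 partner lists (grey), with 1 point per gene, a black line at each list's median and a dashed line at the median of all tested genes (−0.01). The medians of the lists lie between −0.33 and 0.63.

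Library totals ran from 23214836 to 30628787 estimated counts. Markers of perivascular macrophages were abundant (12107 to 18577 CPM summed, 11 of 12 above 3 counts in every library, led by Pf4 and Ms4a7), and those of microglia summed to between 3781 and 7777 CPM. Of the 11 marker lists tested between ages (two-sided, exact, by permutation), the choroid list passed as higher in aged libraries (p = 0.00126, the smallest these libraries can give, adjusted p = 0.0139). Its sum was mostly Ttr (mean 285 CPM), with Kcnj13 next at 15.9 CPM. Not every marker of the list was higher: Folr1, Otx2 and Foxj1 had medians of 0 in both groups. The highest values of Otx2 (7.51 CPM) and Foxj1 (5.78 CPM) were in young libraries. Microglia (0.0366) and lymphocyte markers (0.0341) were lower in aged libraries by unadjusted exact p only (adjusted p = 0.134 for both). Of the microglia list, Siglech and Slc2a5 had higher medians in aged than in young libraries (496 against 397 and 1.16 against 0.193 CPM of the library total). The other microglia markers had lower ones. Of the 8 lymphocyte markers 0 exceeded 3 counts in every library. Cd79b led them (mean 18.8 CPM), and Cd79a had a higher median in aged libraries (0.0746 against 0 CPM). The remaining 8 lists gave unadjusted exact p-values from 0.0606 to 0.65. The part of these cells in the levels of the 10 genes was not tested.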

How the data were processed

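RNA was measured by SMART-seq2 with oligo-dT priming and Nextera XT libraries, per the labels' protocols; the chemistry has no strand mark and no molecular identifiers, so amplified copies count as separate reads. The authors deposited estimated counts per gene. The submitters' processing notes list RSEM 1.2.12, DESeq2 1.4.5, HISAT2 2.0.4 and Bowtie2 2.2.5 on GRCm38, with no role or order; for the annotation, none was given in the sources used here. The second block of columns the authors deposited has no unit in its header and is treated as FPKM: each value scales as the count over library total and over a length per gene (median 2565 bases) whose highest to lowest value between libraries had a median ratio of 1.04 over 5290 genes, with larger ratios for some genes, Inpp5d and Abi3 among them, and its sums differ between libraries. Symbols damaged or repeated (23) were replaced by Entrez identifier; 17244 of 17358 identifiers matched RefSeq genes of GRCm38.p6.

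Estimated counts were rounded and fitted with edgeR 4.0.16 in R 4.3.3 (quasi-likelihood test, TMM factors, filterByExpr, robust, the version's default estimation). Standard errors were derived from the F statistic. DESeq2 1.42.0 and limma 3.58.1 served as alternatives. On simulated counts for this comparison (9199 genes tested) the test called 0 of 49 genes raised 2-fold, 19 of 49 raised 4-fold, 0 of 48 lowered 2-fold and 7 of 47 lowered 4-fold. Correlations used 100000 permutations. The 10 genes and all lists were chosen with earlier results of these data known. The text names all 10 genes, from each list the genes past the threshold or else the 2 with the smallest p, and for each of the 10 the gene of highest Pearson r; other genes were named after their values were seen as family members or partners. In each library 3 counts, the limit that a count of 0 allows, correspond to 0.0979 to 0.129 CPM, which covers counting error only.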

Additional observations from a re-analysis of the deposited data

Results flagged for a closer look

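Within the groups of 5 aged and 7 young libraries, 5 of 20 gene and group combinations held a library whose distance from the nearest other exceeded Dixon's 95% critical value; chance flags about 1 in 20 such groups of normally distributed values. The same measure was past its critical value in 16.8% of 19095 such combinations over all tested genes, and nothing particular to these 10 genes is read from their count. Cd33 was at 30.6 normalised CPM in aged library 3, where the next lowest aged library was at 129. Picalm was at 619 in young library 4, the next young library being at 386. Abca7 was at 13.1 in aged library 1 against at most 1.54 in the other aged libraries. Sorl1 was at 12.6 in aged library 5, with 3.05 the next highest aged value. Clu was at 17.6 in young library 3, young library 7 following at 5.69 and the remaining 5 at 0.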

How the results depend on the processing

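None of the 10 genes was called in any of the 22 alternatives in which it could be fitted (Clu in 20, as it failed the filter without young library 3 or 7). Picalm, Plcg2, Abi3, Sorl1, App, Cd33 and Clu kept their sign in all of them; the lowest adjusted p of Picalm was 0.11, of Cd33 0.359 and of Plcg2 0.493. The log2 fold change of Bin1 was −0.24 without aged libraries 1, 3 and 4. That of Inpp5d ran from −0.23 to 0.28 and that of Abca7 from −0.54 to 2.47 over the single libraries left out. With the replicate block the fitted value of Clu was 8.55, of Sorl1 −4.22 and of Plcg2 −2.56. Over all tested genes the call count was 1, and it was 38 with edgeR legacy=FALSE, 13 without a filter on low counts, 121 with DESeq2, 3 on log2(FPKM + 1), 0 on log2(FPKM + 0.1), 0 without aged libraries 1, 3 and 4, and from 0 to 75 over the single libraries left out, 75 without aged library 2; 570 genes had an unadjusted p under 0.05, a count added after seeing the data. The causes of these differences were not tested. The replicate block called 1 gene; same-numbered libraries correlated between −0.04 and 0.09 and none of 5 correlated best with its own number, so the numbers were not taken as pairs. Of the 45 pairs of genes 1 passed by Pearson r on log2(normalised CPM + 1) and 0 on log2(FPKM + 1). By Spearman rho 0 passed on either scale. Marker differences turned sign without aged library 5 for 3 lists; over the single libraries left out they ran from −6.6e-04 to 0.16 (endothelial), from −0.063 to 0.25 (mural and fibroblast) and from −0.081 to 0.32 (neutrophil and monocyte). Sorl1, Clu and Abca7 held 3 counts or fewer in 4 or 5 libraries, where a level is not measurable at this depth; other libraries of like totals held up to 740, 848 and 326 counts.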
